A study of Mus musculus with 6 samples.

Results

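The genes that present peptides to T cells on major histocompatibility complex (MHC) class I and class II molecules were followed in the RNA of 6 mouse livers. The members are the 7 class II genes H2-Aa, H2-Ab1, H2-Eb1, H2-DMa, H2-DMb1, Cd74 and Ciita and the 3 class I genes H2-K1, H2-D1 and B2m, taken by symbol from the 52459 rows of the gene count table. All 10 were present and all 10 passed the filter on low counts, which kept 17032 genes for testing. Bulk RNA was sequenced from whole livers of male C57BL6J mice of the Alb-Cre/Cas9 F1 cross, in which the albumin promoter drives Cre and thereby Cas9 in hepatocytes. The guide RNA came with an AAV8 vector and was either a control (sgCtrl, mice 5.1, 7.1 and 7.2) or one against Prdx2 (sgPrdx2, mice 1.1, 1.3 and 3.2), the gene of the antioxidant enzyme peroxiredoxin 2, with 3 livers per group. Both groups also received the vector at 4 to 5 weeks of age, 100 mg/kg of the carcinogen diethylnitrosamine (DEN) 3 weeks later and, from 1 week after that, the choline-deficient high-fat diet CDA-HFD for 6 months, so that no untreated or chow-fed liver is part of this comparison and the mice were 8 months old. The study notes islets of hepatocytes that the vector had probably missed, and immune, endothelial and stellate cells have no Cas9 in this cross. The livers had 37462102 to 56865293 counts each, Prdx2 RNA itself was counted 4783, 5247 and 6939 times in sgCtrl and 4345, 6052 and 4858 times in sgPrdx2 livers and therefore does not check the labels, and liver 3.2 had the lowest normalization factor (0.805, against 0.885 to 1.17 in the other 5).

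Class II molecules pair an alpha and a beta chain and display peptides from engulfed material to CD4+ T cells. They are made mainly by dendritic cells, B cells and macrophages, while class I molecules sit with the light chain beta-2-microglobulin on nearly all nucleated cells, hepatocytes included, and display peptides from inside the cell to CD8+ T cells. CIITA is the master coactivator of class II genes, and its relative NLRC5 has that role for class I genes. In a whole liver, fewer cells of a type and less RNA per cell cannot be told apart.

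Letters just before the start sites are shown to describe the members whose promoters were at hand. In the RefSeq promoters (GRCm38.p6, 250 bases before to 50 after each start), 7 of the 10 members were matched, and H2-Ab1, Cd74 and Ciita were not. Class II promoters carry an X box, bound by the RFX complex, and a Y box, bound by NF-Y. The search was for GNAAC followed, after 25 to 28 bases, by ATTGG on either strand. The letters were chosen after the promoters of the members had been read. In the lines that follow, capitals mark these letters, and each stretch is written 5′ to 3′ on the strand of its gene.
H2-Aa, chr17:34287857-34287914, minus strand: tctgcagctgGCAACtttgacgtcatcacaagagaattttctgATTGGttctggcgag
H2-Eb1, chr17:34305766-34305822, plus strand: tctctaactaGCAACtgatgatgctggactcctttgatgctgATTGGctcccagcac
H2-DMb1, chr17:34153087-34153144, plus strand: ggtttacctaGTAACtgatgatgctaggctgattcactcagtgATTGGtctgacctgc
The same pair of letters stood in 234 of all 32851 promoters (0.712%), and in neither promoter of H2-DMa nor in those of H2-K1, H2-D1 and B2m. For class I, GGGGATTCC, a kappaB-type site, and AANTGAAA, an interferon-type site, were searched on both strands. H2-K1 and H2-D1 held the first, as did 82 of all promoters (0.25%), and H2-K1, H2-D1 and B2m held the second, as did 2161 of all promoters (6.58%). The open base N stands where H2-K1 and H2-D1 differ from B2m, so their shared match follows from the letters chosen and is no test.
H2-K1, kappaB-type, chr17:34000440-34000468, minus strand: gcccagggctGGGGATTCCccatctccac
H2-D1, kappaB-type, chr17:35262913-35262941, plus strand: gcccagggctGGGGATTCCccatctcctc
H2-K1, interferon-type on the opposite strand, chr17:34000420-34000447, minus strand: atctccacagTTTCACTTctgcacctaa
H2-D1, interferon-type on the opposite strand, chr17:35262934-35262961, plus strand: atctcctcagTTTCACTTctgcacctaa
B2m, interferon-type, chr2:122147540-122147567, plus strand: aagaacatgaAACTGAAAatgggaaagt
A match is a description of these letters and not evidence of a bound site.

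Per length, as CPM (counts scaled to library size and TMM factor) per kilobase of exons, the class I genes stood highest. B2m had a mean of 3027 over the 6 livers (range 2622 to 3471), H2-K1 one of 731.2 (611.9 to 935.1) and H2-D1 one of 519.7 (423.3 to 678.3). The invariant chain Cd74, which fills the class II groove until a peptide is loaded, followed at 474.8 (391.2 to 672.9), and H2-D1 was above it in 5 of 6 livers. The class II chains H2-Eb1, H2-Aa and H2-Ab1 had means of 150.2, 95.4 and 86.33, the loading factors H2-DMb1 and H2-DMa of 14.49 and 9.453, and Ciita of 0.8148 CPM per kb. The ranges over livers of B2m and H2-K1, of Cd74 and H2-Eb1, of H2-Ab1 and H2-DMb1, and of H2-DMa and Ciita did not overlap, whereas the other neighbors in this order overlapped. Length is the union of exons of all annotated transcripts of a gene, so the order depends on the annotation. By CPM alone, H2-Aa stood above H2-Eb1 (means of 337 and 264 in sgCtrl livers) and H2-DMa above H2-DMb1 (31.7 and 25.5). C57BL/6 mice lack a working H2-Ea gene, the usual partner of H2-Eb1, and its row H2-Ea-ps was counted 0 times in all 6 livers.

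None of the 10 members passed the test between groups (edgeR quasi-likelihood test, Benjamini-Hochberg adjusted p under 0.05), against 3.33% of all genes tested. With library size alone 3 members passed, H2-DMb1, Ciita and H2-D1, where 3247 of all 17032 genes passed. With TMM scaling, 1 member, Ciita, had an unadjusted p under 0.05 (edgeR), against 24.9% of all genes. DESeq2 also called 0 members, while it called 13.8% of the genes it gave an adjusted p. The groups did not overlap for 1 of 10 members, again Ciita, against 34.2% of all genes. The median log2 fold change was 0.10 over the class II and 0.04 over the class I members, and -0.02 over all genes. The class II median ran from -0.07 without liver 3.2 to 0.23 without liver 7.2, and the class I median ran from -0.05 without liver 3.2 or 7.1 to 0.14 without liver 1.3 or 5.1. TMM scaling centers the typical gene at 0, so these directions are relative to it. With library size alone, the median of all genes moved to -0.39 and 7 members changed sign, but the class II and class I medians lay 0.11 and 0.04 above that median.

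**Figure D1:**
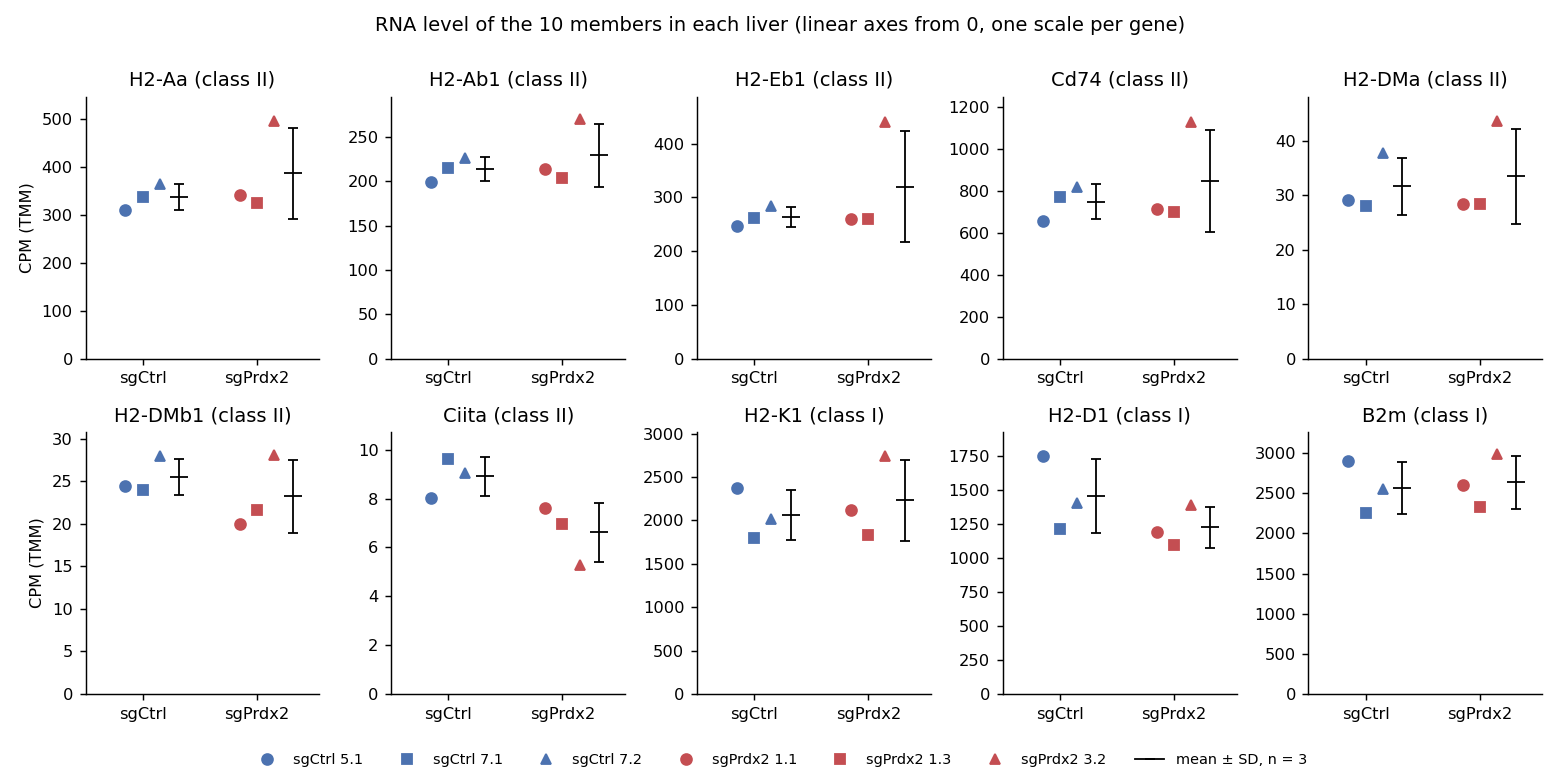
Each panel plots the normalized CPM of 1 member (vertical axis, linear, from 0) in the 3 sgCtrl livers (blue) and the 3 sgPrdx2 livers (red), with the mean ± SD of each group in black. Liver 3.2 (red triangle) is the highest of the 6 for H2-Aa, H2-Ab1, H2-Eb1, Cd74, H2-DMa, H2-DMb1, H2-K1 and B2m and the lowest for Ciita, the panel in which the groups do not overlap.

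The class II chain genes were at like levels in 5 livers and higher in liver 3.2. H2-Aa, the alpha chain of I-A, was at 310, 338 and 364 CPM in sgCtrl livers 5.1, 7.1 and 7.2 and at 341, 325 and 496 CPM in sgPrdx2 livers 1.1, 1.3 and 3.2. Livers 1.1 and 1.3 lay within the sgCtrl range, and 3.2 alone lay above it. Its log2 fold change was 0.20 (SE 0.19, where SE is the standard error, 95% interval -0.25 to 0.64, adjusted p = 0.549, edgeR), and -0.01 without liver 3.2. H2-Ab1, the I-A beta chain, was at 200, 215 and 227 CPM in sgCtrl and 214, 204 and 270 CPM in sgPrdx2 livers. The picture was the same, and the difference was 0.10 on the log2 scale (SE 0.15, adjusted p = 0.711) and -0.02 without liver 3.2. H2-Eb1, the beta chain of I-E, was at 246, 262 and 283 CPM in sgCtrl and 260, 260 and 440 CPM in sgPrdx2 livers. Liver 3.2 stood at 167% of the sgCtrl mean, the other 2 sgPrdx2 livers within the sgCtrl range. The log2 fold change of H2-Eb1 was 0.28 (SE 0.22, adjusted p = 0.466), and -0.01 without liver 3.2.

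Among the loading proteins, Cd74 was at 657, 768 and 818 CPM in sgCtrl and 711, 699 and 1130 CPM in sgPrdx2 livers. As for the chains, liver 3.2 was above all others and the groups overlapped. The log2 fold change of Cd74 was 0.18 (SE 0.22, adjusted p = 0.640), and -0.07 without liver 3.2. H2-DMa and H2-DMb1 form H2-DM, which exchanges the invariant chain's remnant for peptide. H2-DMa was at 29.1, 28.1 and 37.7 CPM in sgCtrl and 28.5, 28.4 and 43.7 CPM in sgPrdx2 livers, and H2-DMb1 at 24.5, 24.05 and 27.9 against 20.0, 21.6 and 28.1 CPM. Both overlapped between groups, with log2 fold changes of 0.08 (SE 0.20, adjusted p = 0.827) and -0.14 (SE 0.16, adjusted p = 0.613), and liver 3.2 was the highest for both. H2-DMa was at -0.14 without liver 3.2, and H2-DMb1 ran from -0.28 without liver 3.2 to -0.04 without liver 1.1. Of the stretches of 50 bases in H2-DMb1 transcripts, 22.7% also lie in H2-DMb2, and 360 exon bases of H2-DMa overlap Brd2 on the other strand, so reads there depend on how the authors counted.

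Ciita, the coactivator of the other class II members, had the lowest fold change of the 10. It was at 8.04, 9.63 and 9.06 CPM in sgCtrl and 7.63, 6.97 and 5.28 CPM in sgPrdx2 livers, from 352, 433, 476, 335, 377 and 172 counts. Each sgPrdx2 liver was below each sgCtrl liver, as for 17.5% of all genes in that direction. The log2 fold change was -0.42 (SE 0.18, 95% interval -0.84 to -0.01, unadjusted p = 0.0452), which did not pass after adjustment (edgeR adjusted p = 0.191). Liver 3.2, the highest for the 3 chains and Cd74, was the lowest for Ciita, at 59.3% of the sgCtrl mean, and without it the log2 fold change was -0.28. Ciita has 9535 exon bases and Cd74 1679. Liver 3.2 was also the lowest for Creb1 (13742 exon bases) and Nlrc5 (8493) and the highest for Psmb10 (1705), but not the lowest for Irf8 (7055). Whether transcript length or RNA quality had a part in the values of liver 3.2 was not tested. Ciita overlaps Dexi on the other strand in 329 exon bases.

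The groups overlapped for all 3 class I members, and none passed the test. H2-K1, the K heavy chain, was at 2375, 1798 and 2016 CPM in sgCtrl and 2118, 1836 and 2747 CPM in sgPrdx2 livers. H2-D1, the D heavy chain, was at 1749, 1212 and 1407 CPM in sgCtrl and 1189, 1092 and 1392 CPM in sgPrdx2 livers. B2m, the light chain, was at 2898, 2255 and 2549 CPM in sgCtrl and 2604, 2327 and 2985 CPM in sgPrdx2 livers. Livers 5.1 and 3.2 were the 2 highest for H2-K1 and B2m, 1 from each group, whereas liver 3.2 was no higher than liver 7.2 for H2-D1. The log2 fold changes were 0.11 (SE 0.20, adjusted p = 0.748) for H2-K1, -0.25 (SE 0.19, adjusted p = 0.436) for H2-D1 and 0.04 (SE 0.17, adjusted p = 0.903) for B2m. Without liver 3.2, H2-K1 was at -0.05 and B2m at -0.05, and H2-D1 ran from -0.37 without liver 7.1 to -0.10 without liver 5.1. The 95% intervals of the 10 members, as folds, had lower bounds from 0.560 for Ciita to 0.847 for H2-Eb1 and upper bounds from 0.992 for Ciita to 1.74 for H2-Eb1.

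Class II and class I were then set against each other within each liver. The mean log2 CPM of the 7 class II members was 6.53, 6.64 and 6.77 in sgCtrl livers 5.1, 7.1 and 7.2 and 6.54, 6.51 and 6.95 in sgPrdx2 livers 1.1, 1.3 and 3.2. That of the 3 class I members was 11.16, 10.73 and 10.92 in sgCtrl and 10.87, 10.71 and 11.14 in sgPrdx2 livers. Both overlapped between groups, and liver 3.2 was the highest for class II while liver 5.1 was the highest for class I. Class II minus class I, on the log2 scale, was -4.63, -4.10 and -4.15 in sgCtrl and -4.33, -4.20 and -4.19 in sgPrdx2 livers, with means of -4.29 ± 0.30 (SD, n = 3) and -4.24 ± 0.08 (SD, n = 3). The sgPrdx2 livers all lay within the sgCtrl range, so the difference of 0.05 was smaller than the spread between livers (pooled SD 0.22). Without Ciita among the class II members it was 0.13.

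**Figure D2:**
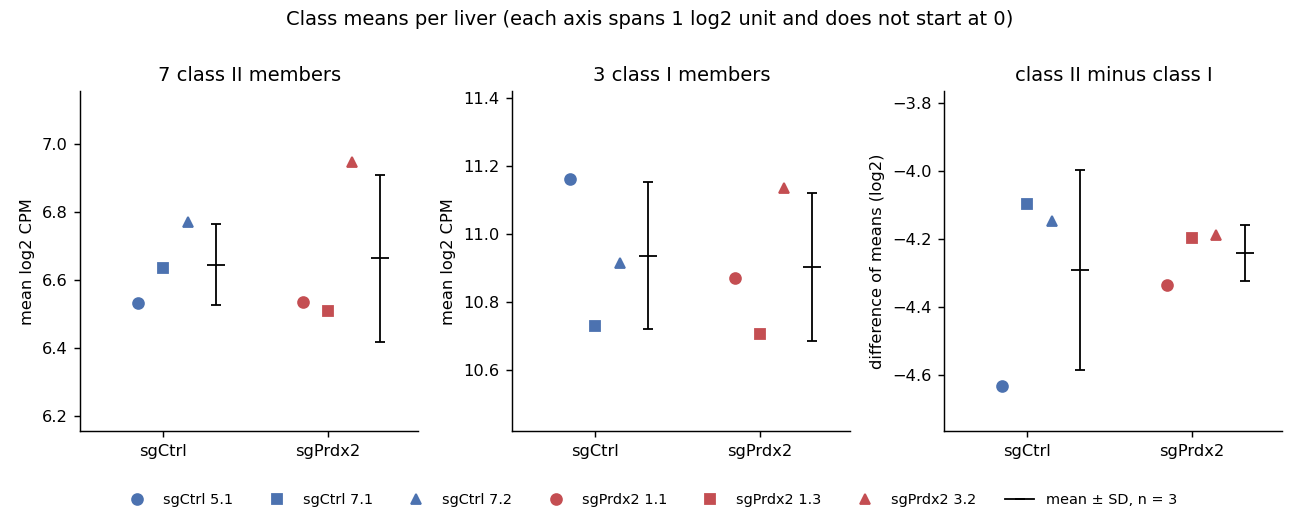
The panels plot the mean log2 CPM of the 7 class II members, that of the 3 class I members and their difference (vertical axes of 1 log2 unit that do not start at 0) for the 3 sgCtrl livers (blue) and the 3 sgPrdx2 livers (red), with the mean ± SD in black. The 3 sgPrdx2 livers, at -4.33, -4.20 and -4.19 for class II minus class I, lie between the lowest and the highest sgCtrl liver, at -4.63 and -4.10.

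Ratios of 2 members within a liver do not depend on the scaling between livers. Of the 45 pairs of members, 13 had ratios that did not overlap between groups, against 32.7% of all pairs of genes tested, so such pairs were no more frequent than in the background. The pairs described here were chosen after their values were seen and were not tested. The ratio of H2-K1 to H2-D1 was 1.36, 1.48 and 1.43 in sgCtrl and 1.78, 1.68 and 1.97 in sgPrdx2 livers, and that of H2-D1 to B2m 0.604, 0.538 and 0.552 against 0.457, 0.469 and 0.466. Neither ratio overlapped between groups, and that of H2-K1 to H2-D1 was more spread in sgPrdx2 (SD 0.149) than in sgCtrl livers (SD 0.0628). Of the 50-base stretches, 9.63% of those of H2-K1 and 12.8% of those of H2-D1 also lie in other genes, H2-Q genes and each other among them. The ratio of H2-Aa to H2-Ab1, by contrast, was 1.56, 1.57 and 1.60 in sgCtrl and 1.59, 1.59 and 1.84 in sgPrdx2 livers, with liver 3.2 apart from the other 5. The ratio of Cd74 to Ciita was 81.7, 79.8 and 90.3 in sgCtrl and 93.1, 100.3 and 213.9 in sgPrdx2 livers. It was above every sgCtrl liver in each sgPrdx2 liver, and liver 3.2 stood far above the other 5. The exon lengths of Cd74 and Ciita differ, as given above, and their part in this ratio was not tested. In the 18 pairs of a class I member with a class II member other than Ciita, 3 did not overlap, and all 3 had H2-D1 as their class I gene and a class II chain as the other.

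**Figure D3:**
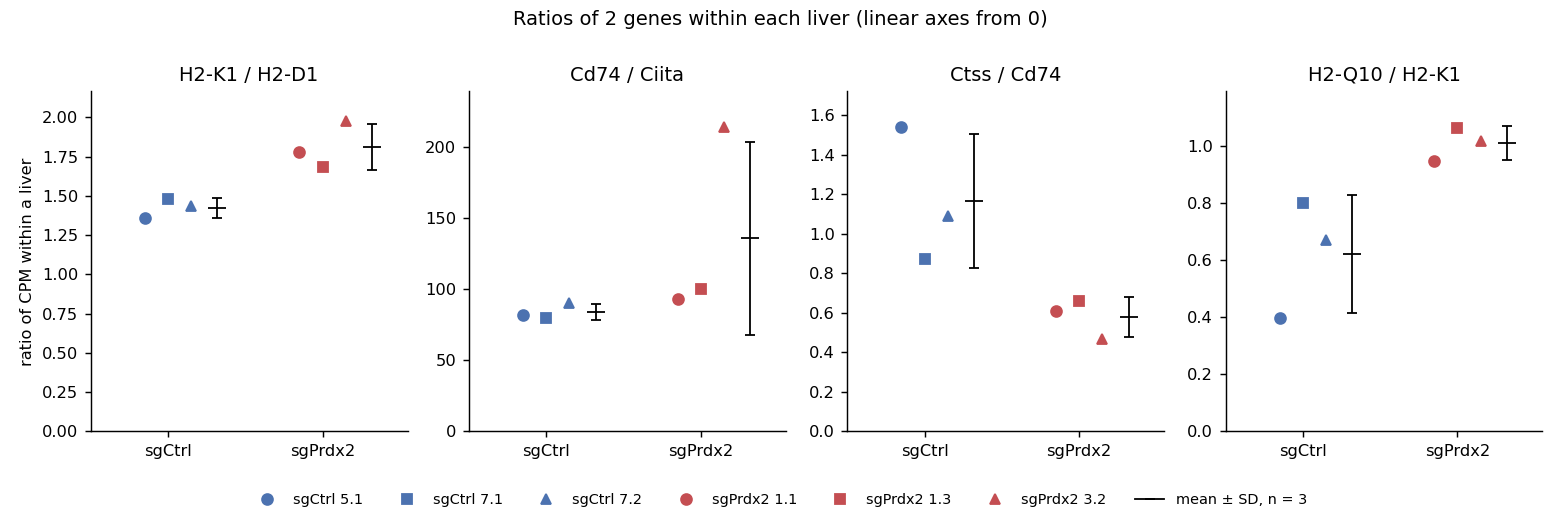
Each panel plots the ratio of the CPM of 2 genes within a liver (vertical axis, linear, from 0) for the 3 sgCtrl livers (blue) and the 3 sgPrdx2 livers (red), with the mean ± SD in black. H2-K1 to H2-D1 lies at 1.36 to 1.48 in the blue and 1.68 to 1.97 in the red group, Ctss to Cd74 at 0.874 to 1.54 and 0.467 to 0.660, and H2-Q10 to H2-K1 at 0.397 to 0.801 and 0.947 to 1.07, and Cd74 to Ciita is highest in liver 3.2.

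Other genes of class II presentation were read from lists that hold 62 pathway genes, 60 of them tested. Of the 8 other class II genes, 1 passed the test in the lower direction (1.54% of all genes did) and 0 in the higher direction (1.79% of all genes did). The gene was March1, a membrane ubiquitin ligase that marks class II molecules and CD86 for degradation. March1 was at 10.3, 10.1 and 9.80 CPM in sgCtrl and 6.40, 6.07 and 5.13 CPM in sgPrdx2 livers. The groups lay well apart, with a log2 fold change of -0.78 (SE 0.15, adjusted p = 0.0415, edgeR). Its adjusted p ran from 0.0755 to 0.157 in the 5 fits that left out 1 of the livers other than 3.2. Ctss, the cathepsin that trims the invariant chain, was at 1011, 672 and 892 CPM in sgCtrl and 433, 461 and 528 CPM in sgPrdx2 livers. Each sgPrdx2 liver was below each sgCtrl liver, and the log2 fold change of -0.86 (SE 0.19) missed the threshold (adjusted p = 0.0530, edgeR) but passed it with DESeq2 (adjusted p = 6.3e-04). The ratio of Ctss to Cd74, its substrate, was 1.54, 0.874 and 1.09 in sgCtrl and 0.610, 0.660 and 0.467 in sgPrdx2 livers, again without overlap. Cd83, which counters March1 at the cell surface, was at -0.32 on the log2 scale (adjusted p = 0.189), and Ifi30, a lysosomal thiol reductase, at -0.31 (adjusted p = 0.402). H2-DMb2 was at 0.20 (adjusted p = 0.560).

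The factors that bind the X and Y boxes of class II promoters had 0 of 7 genes called by edgeR (3.33% of all genes). At an unadjusted p under 0.05 there was 1 (24.9% of all genes), Nfya, which DESeq2 called (adjusted p = 0.0135). Nfya, the NF-Y subunit that contacts DNA sequence directly, was at 27.3, 26.5 and 25.1 CPM in sgCtrl and 17.2, 20.5 and 14.3 CPM in sgPrdx2 livers, with no overlap and a log2 fold change of -0.60 (SE 0.15, adjusted p = 0.0690, edgeR). The other NF-Y subunits Nfyb and Nfyc were at 0.39 (adjusted p = 0.237) and 0.25 (adjusted p = 0.334), Rfxank of the RFX complex at 0.28 (adjusted p = 0.299), and Creb1 at -0.32 (adjusted p = 0.207). Over the 7 factors the median log2 fold change was 0.25, and 3 of the 7 were without overlap, 2 lower and 1 higher, against 34.2% of all genes, 17.5% lower and 16.7% higher.

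Class I loading and peptide supply was a list of 14 genes with the TAP transporter, the immunoproteasome and the chaperones. It had 0 calls by edgeR (3.33% of all genes), 0 genes at an unadjusted p under 0.05 (24.9% of all genes) and 0 genes without overlap (34.2% of all genes). Its median log2 fold change was 0.02. Tap1, a peptide transporter subunit, had the smallest p, at 83.1, 64.6 and 74.9 CPM in sgCtrl and 66.8, 62.9 and 55.9 CPM in sgPrdx2 livers (log2 fold change -0.26, SE 0.14, adjusted p = 0.294). The immunoproteasome genes Psmb10 and Psmb9 were at 0.41 (adjusted p = 0.359) and 0.19 (adjusted p = 0.484), and the proteasome activator genes Psme2 and Psme1 at 0.27 (adjusted p = 0.474) and 0.19 (adjusted p = 0.645). For Psmb10 liver 3.2 was at 138 CPM and the other 5 between 59.5 and 82.3, as for the class II chains. Nlrc5 was at 51.7, 38.4 and 40.2 CPM in sgCtrl and 44.2, 43.1 and 33.0 CPM in sgPrdx2 livers, which overlapped (log2 fold change -0.11, SE 0.17, adjusted p = 0.703).

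**Figure D4:**
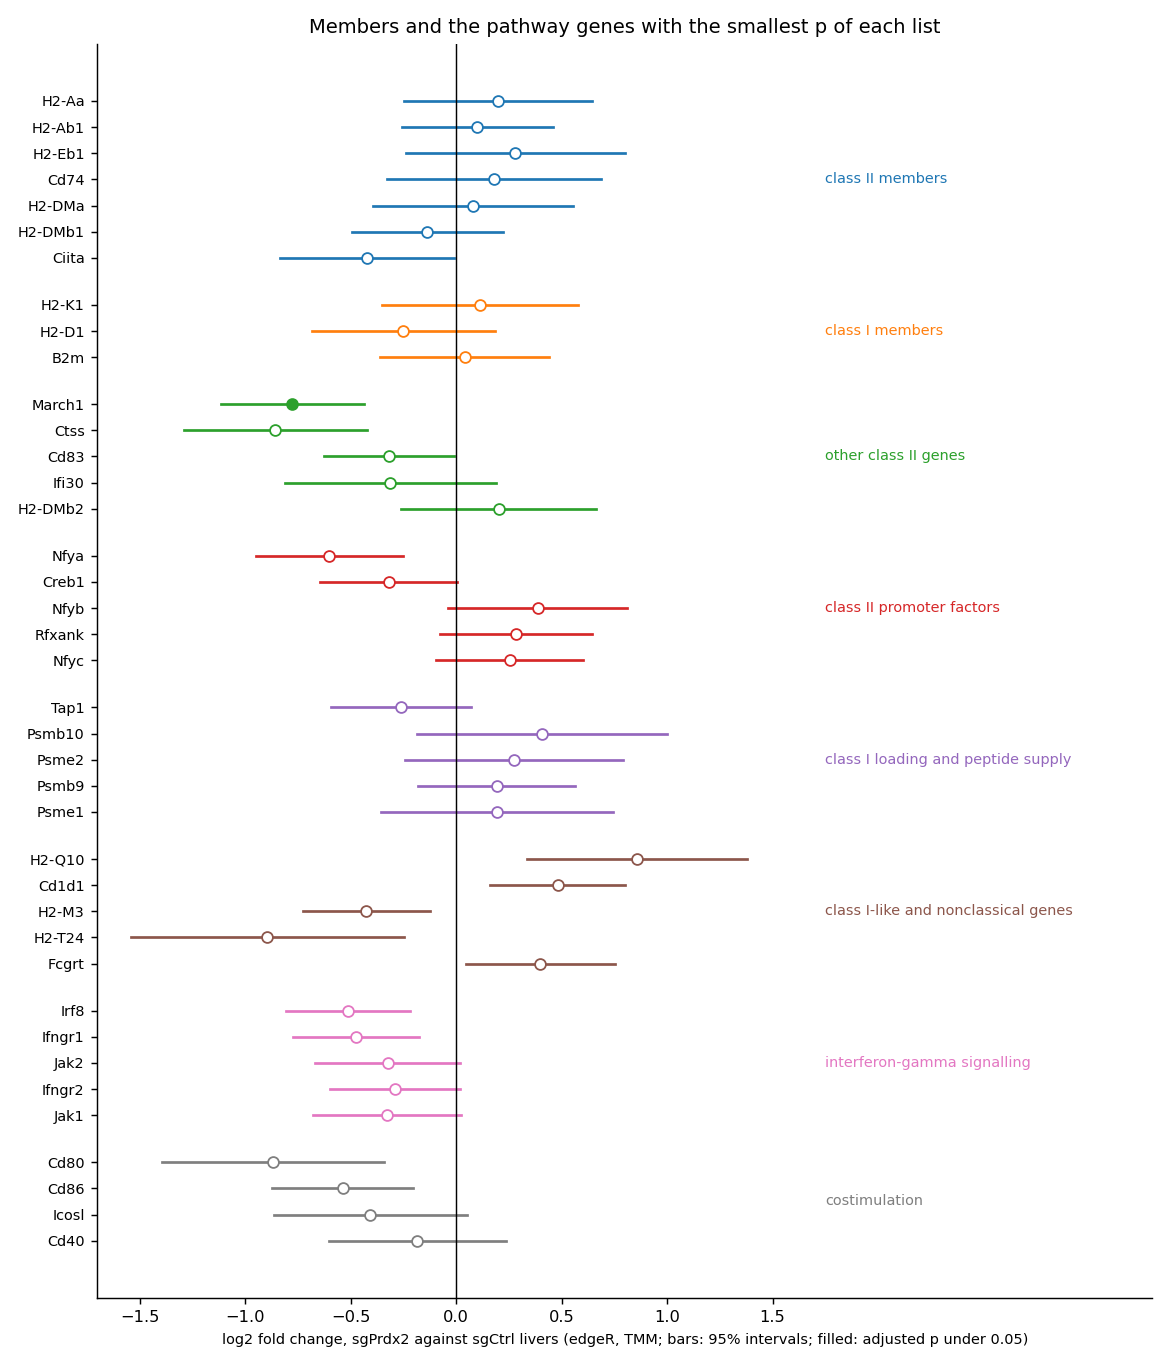
The points are log2 fold changes of sgPrdx2 against sgCtrl livers (horizontal axis) with 95% intervals, for the 10 members and for up to 5 genes with the smallest p in each pathway list, and filled points have an adjusted p under 0.05. March1, at -0.78, is the only filled point, and the interval of Ciita, from -0.84 to -0.01, is the only one among the members that does not cross 0.

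The class I-like and nonclassical genes had fold changes on both sides of 0. H2-Q10, a secreted class I heavy chain made mainly by the liver, was at 942, 1440 and 1351 CPM in sgCtrl and 2004, 1954 and 2798 CPM in sgPrdx2 livers. Each sgPrdx2 liver was above each sgCtrl liver, and the log2 fold change was 0.86 (SE 0.23, adjusted p = 0.0752 from edgeR, 0.00322 from DESeq2). The ratio of H2-Q10 to albumin (Alb), another secreted hepatocyte product, was 0.0159, 0.0230 and 0.0230 in sgCtrl and 0.0157, 0.0200 and 0.0219 in sgPrdx2 livers, which overlapped. Of the 50-base stretches of H2-Q10 transcripts, 19.1% also lie in other genes, H2-Q7 above all. Cd1d1, which presents lipids to NKT cells, was at 135, 142 and 128 against 214, 175 and 176 CPM (log2 fold change 0.48, adjusted p = 0.0925), and Fcgrt, the neonatal Fc receptor that pairs with B2m and recycles IgG and albumin, at 202, 189 and 178 against 241, 218 and 291 CPM (0.40, adjusted p = 0.160). Both were higher without overlap, edgeR called neither, and DESeq2 called Cd1d1 (adjusted p = 0.0119). H2-M3, which presents formylated peptides, was at 16.9, 13.8 and 15.1 against 11.3, 11.6 and 11.1 CPM (log2 fold change -0.43, adjusted p = 0.104), and H2-T24 at 15.8, 7.32 and 11.3 against 6.86, 6.62 and 4.98 CPM (-0.90, adjusted p = 0.109 from edgeR, 0.0275 from DESeq2, and -0.60 without liver 5.1). Of the 19 genes tested of 20 listed, 0 were called by edgeR, 5 had an unadjusted p under 0.05 (24.9% of all genes) and 6 were without overlap (34.2% of all genes), 3 in each direction, so these shares were near the background.

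Interferon-gamma induces both classes, through CIITA for class II. All 8 tested genes of its signalling list had log2 fold changes below 0, from -0.51 to -0.06 with a median of -0.33, where 51.7% of all genes were below 0. Of the 8, 5 were lower without overlap (17.5% of all genes), 0 were called by edgeR and 2 had an unadjusted p under 0.05 (24.9% of all genes). Irf8, a transcription factor of dendritic cells and macrophages, was at 60.5, 48.2 and 53.6 CPM in sgCtrl and 37.3, 36.6 and 39.9 CPM in sgPrdx2 livers (log2 fold change -0.51, adjusted p = 0.0672), and the receptor chain Ifngr1 at 84.1, 77.9 and 94.6 against 60.6, 64.9 and 59.2 CPM (-0.47, adjusted p = 0.0804), and DESeq2 called both (adjusted p of 0.0128 and 0.0146). With library size alone both lay as far below the median of all genes, at -0.50 and -0.45. Ifng itself was counted 3 to 9 times per liver and was not tested. Of the 4 costimulation genes, 0 were called by edgeR (3.33% of all genes) and 2 had an unadjusted p under 0.05 (24.9% of all genes). These were the CD28 ligands Cd80, at 1.44, 1.31 and 1.56 against 0.775, 0.869 and 0.706 CPM (log2 fold change -0.87, adjusted p = 0.0748), and Cd86, at 11.7, 10.3 and 13.1 against 8.23, 7.58 and 8.35 CPM (-0.54, adjusted p = 0.0790). Neither overlapped between groups (17.5% of all genes were lower without overlap), and DESeq2 called both (adjusted p of 0.0450 and 0.0248). Cd80 had only 23 to 82 counts per liver. Over all pathway lists, DESeq2 called 10 genes, while it called 13.8% of all genes it gave an adjusted p. EdgeR called 1 of the 60 pathway genes tested, against 3.33% of all genes tested.

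Markers of the cells that carry class II molecules had fold changes on both sides of 0. Of the 8 macrophage markers, all 8 had log2 fold changes below 0 (median -0.47), 4 were lower without overlap (17.5% of all genes) and edgeR called 1 lower (1.54% of all genes), Mpeg1, at 512, 456 and 506 CPM in sgCtrl and 283, 302 and 250 CPM in sgPrdx2 livers (log2 fold change -0.82, adjusted p = 0.0394, edgeR). Their summed level was 3882 to 4349 CPM in sgCtrl and 2730 to 3862 CPM in sgPrdx2 livers, with liver 3.2 the highest of its group as it was for the class II chains. For Lyz2 and C1qb liver 3.2 was at 2084 and 440 CPM and livers 1.1 and 1.3 at 1335 to 1387 and 282 to 291 CPM, whereas for Mpeg1 and Adgre1 (28.8 against 44.7 and 46.6 CPM) liver 3.2 was the lowest. Of the 8, 1 was highest and 2 were lowest of the 6 livers in liver 3.2. The 9 dendritic cell markers summed to 128 to 153 CPM in sgCtrl and 89.8 to 119 CPM in sgPrdx2 livers. Most of this sum was Itgax, an integrin that macrophages also carry, at 111, 98.2 and 90.5 against 60.1, 62.3 and 80.3 CPM. Itgax held the smallest p (log2 fold change -0.56, adjusted p = 0.0875 from edgeR, 0.0235 from DESeq2). It was the only 1 of the 9 without overlap (17.5% of all genes were lower without overlap), so the sums do not describe the other markers. Of the 9, 6 had log2 fold changes below 0 and edgeR called 0. Of the 9, 2 were highest in liver 3.2 (Batf3 and Ccr7) and 2 were lowest there (Flt3 and Zbtb46). The 7 B cell markers summed to 31.5 to 36.5 CPM in sgCtrl and 30.7 to 35.4 CPM in sgPrdx2 livers and 0 were called by edgeR, with 1 highest in liver 3.2 (Cd79b) and 3 lowest there. No defining marker of these 3 lists was at 0. Whether these cells, or the exon lengths of the genes, had a part in the class II values of liver 3.2 was not tested.

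Markers of other cells gave 1 call among 6 T cell markers, Cd8a (log2 fold change -0.84, adjusted p = 0.0486, edgeR), which also marks a dendritic cell subset. Among 4 sinusoidal endothelium markers there was also 1, Pecam1 (-0.77, adjusted p = 0.0423, edgeR). Cd8a and Pecam1 were called lower, as were 1.54% of all genes. The other sinusoidal markers were not called and lay on both sides of 0, Lyve1 at -1.23, Clec4g at -0.13 and Stab2 at 0.27. By edgeR, the 5 Kupffer cell markers had 0 calls and overlapped, the 4 cholangiocyte markers 0 calls with a summed level of 132 to 217 CPM in sgCtrl and 115 to 136 CPM in sgPrdx2 livers, and the 4 stellate cell markers 0 calls with 1009 to 1144 and 766 to 816 CPM. All markers of these Kupffer cell, cholangiocyte and stellate cell lists had log2 fold changes below 0, where 51.7% of all genes were below 0. In the higher direction, 4 of 6 hepatocyte markers were called (1.79% of all genes), Alb, Apoa1, Serpina1c and Cyp2e1. Their log2 fold changes were 0.97, 1.15, 1.24 and 0.96 (adjusted p from 0.0409 to 0.0473, edgeR). All 6 hepatocyte markers were higher without overlap (16.7% of all genes). Their list summed to 73040 to 78030 CPM in sgCtrl and 124000 to 165200 CPM in sgPrdx2 livers, with no overlap, beside which the 3 class I members stayed at 5265 to 7022 and 5254 to 7124 CPM. The part of this shift in the values of H2-Q10, Cd1d1 and Fcgrt was not tested. All 7 marker calls were lost in 4 of the 6 fits that left out 1 liver (5.1, 7.2, 1.1 or 1.3), in which edgeR called 0 genes of all, and without liver 7.1 there were also 0. Without liver 3.2, 5 marker calls and that of March1 were made.

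**Figure D5:**
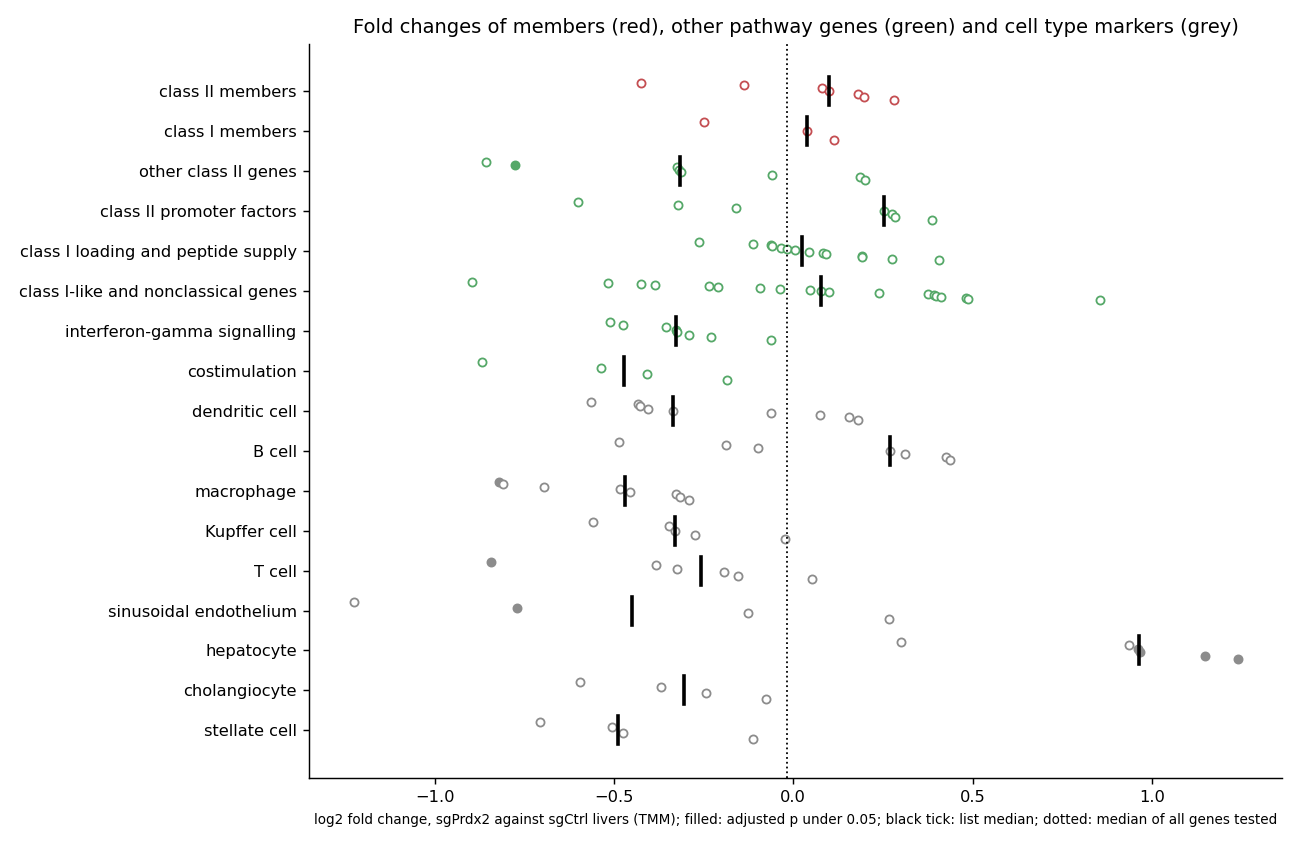
Each circle is the log2 fold change of 1 gene (horizontal axis, sgPrdx2 against sgCtrl livers), by list (vertical axis), with members in red, other pathway genes in green and cell type markers in grey, filled where the adjusted p is under 0.05, list medians as black ticks and the median of all genes as a dotted line. The class II and class I medians, 0.10 and 0.04, sit close to the dotted line at -0.02, the macrophage median at -0.47 lies to its left and the hepatocyte median at 0.96 to its right.

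The genes most like the class II chains across the livers were sought among 9075 genes of at least 10 CPM outside all lists, by the root mean square difference of log2 CPM after centring each gene on its mean over the 6 livers. The closest to the mean of H2-Aa, H2-Ab1, H2-Eb1 and Cd74 were Nubp1, Med11, Zfp637, Hax1 and Stx18, at 0.0293 to 0.0453. Nubp1, for example, was at 34.2, 36.1 and 39.2 CPM in sgCtrl and 37.4, 35.8 and 53.2 CPM in sgPrdx2 livers, with liver 3.2 the highest as for the chains. The 4 genes themselves lay at 0.0128 (H2-Aa), 0.0410 (Cd74), 0.0677 (H2-Eb1) and 0.0851 (H2-Ab1) from that mean, to which each of them contributes. The closest to the class I mean were Cldn5, Ly6e, Rexo4, Igsf8 and Cystm1, at 0.0349 to 0.0542, where B2m, H2-K1 and H2-D1 lay at 0.0482, 0.0822 and 0.111. Ly6e was at 1643, 1241 and 1510 CPM in sgCtrl and 1367, 1272 and 1661 CPM in sgPrdx2 livers, with livers 5.1 and 3.2 the 2 highest. This likeness rests on 6 livers that share their scaling.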

How the data were processed

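Bulk liver RNA-Seq of 3 sgCtrl and 3 sgPrdx2 mice was used, with groups from the labels. The authors deposited counts of reads per gene as whole numbers without normalization. The submitters' processing notes name HISAT2, HTSeq and DESeq2 and the build GRCm38. Versions, annotation release and strand setting are not given in the sources used here. A second deposited table, of fold changes and p-values, holds the authors' DESeq2 comparison and was not used.

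Counts were analyzed in R 4.3.3 with edgeR 4.0.16 (filterByExpr with a minimum count of 10, TMM, quasi-likelihood test, Benjamini-Hochberg adjustment over 17032 genes, called under 0.05). Standard errors (SE) were taken as log2 fold change over the root of F, and the biological coefficient of variation was 0.213. DESeq2 1.42.0, other scalings, filters and leaving out each liver were the alternatives. The fits were also run on simulated counts as a check of the code, which is not used as support for any result here. Class means used log2 CPM with a prior count of 2. Lengths, overlaps and shared 50-base stretches come from GENCODE transcripts of GRCm38, which need not be the authors' annotation. At these depths, 3 counts stand for 0.0555 to 0.0921 CPM, which covers counting error only.

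The members and lists were chosen with earlier results of these data known. Named are all members, up to 5 genes with the smallest p in each list, H2-Q10, H2-Ea-ps, Nlrc5, Prdx2 and the 5 genes most like each class. Others, such as Lyz2, C1qb, Batf3, Ccr7 and Zbtb46, were named after their values were seen. List counts and medians carry no test. The alternatives for genes other than the members were chosen after seeing the data.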

Additional observations from a re-analysis of the deposited data

How the results depend on the processing

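No paired analysis was possible because the groups share no replicate numbers. RLE and upper-quartile scaling and the filter of 10 counts in every liver kept the direction of every member and the call counts of members (0), pathway genes (1) and, within 1.5 times, markers (6 to 7). With library size alone, members called were 3 (H2-DMb1, Ciita and H2-D1), the class II median was -0.28 and the class I median -0.34. The log2 fold changes of H2-Aa, H2-Ab1, H2-Eb1, Cd74, H2-DMa, H2-K1 and B2m were -0.19, -0.28, -0.11, -0.21, -0.31, -0.28 and -0.34. That scaling called 17 of 60 pathway genes and 22 of 53 markers, where it called 3247 of all 17032 genes. The all-gene median there was -0.39, relative to which the members lay at -0.40 to 0.27. Without a low-count filter, 3 pathway genes were called, where 1128 of all 28631 genes were. With DESeq2, 10 pathway genes and 14 markers were called, where 2118 of the 15363 genes with an adjusted p were. The cause of these differences was not tested. Leaving out 1 liver at a time gave 0 members called throughout, 0 to 2 pathway genes and 0 to 5 markers called, class II medians of -0.07 to 0.23 and class I medians of -0.05 to 0.14. Without liver 3.2, H2-Aa, H2-Ab1, H2-Eb1, Cd74, H2-DMa, H2-K1 and B2m were at -0.0091, -0.021, -0.0078, -0.074, -0.14, -0.050 and -0.047 and Nlrc5 at 0.020. Their highest values, without liver 1.3 (7.2 for H2-DMa), were 0.33, 0.20, 0.43, 0.32, 0.23, 0.26 and 0.14. Without liver 7.1, B2m was at -0.046, and without liver 5.1 Nlrc5 was at 0.030 (lowest -0.19). The difference between classes ranged from -0.12 to 0.15 when 1 liver was left out.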
